A study of Mus musculus with 6 samples.

Results

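Nrf2, encoded by Nfe2l2, and 9 of its classical antioxidant target genes were followed in cultured mouse neurospheres. Those genes are Nqo1, Hmox1, Gclc, Gclm, Me1, Txnrd1, Srxn1, Slc7a11 and Gsr. The 10 genes were chosen by name, from a list proposed when results of these arrays were already known, among them that Me1 was one of the largest falls from primary to secondary spheres. Differences between primary and secondary spheres are therefore given as a description of these arrays and support nothing about the choice. Of the 10 genes, 9 had a probe on the array and 8 passed the filter on dim probes, out of 10167 named genes tested in all. Those 9 genes had 17 probes, of which 11 passed. Gclc did not pass the filter, and Gsr was not analysed here.

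RNA was measured on 6 Illumina MouseWG-6 arrays, which read the brightness of a labelled sample on gene-specific probes. The spheres, balls of cells that dividing neural progenitors build up in suspension, were grown from the subventricular zone of mice aged 18 months, with EGF and FGF and no treatment, and sampled at 14 days in vitro. They were wild type (wt) or Wip1-transgenic (Wip1-Tg), Wip1 being the phosphatase that Ppm1d encodes, and they were primary spheres or the secondary spheres that follow a passage. There was 1 wt primary array, 2 Wip1-Tg primary arrays, 2 wt secondary arrays and 1 Wip1-Tg secondary array. The labels give neither the strain nor the promoter that drives the transgene, so which of the cultured cells express it is not known here. Whether replicates are different animals or different cultures is not stated, so the p-values speak to the spread among these arrays alone, which may be technical. Nor do they say whether the secondary spheres came from the primary ones measured.

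Nrf2 is a transcription factor that is normally held back in the cytoplasm by Keap1, an adaptor of the Cul3 ubiquitin ligase, which marks it for degradation. Oxidants and electrophiles modify Keap1, Nrf2 accumulates, pairs with a small Maf protein and binds antioxidant response elements in front of genes for glutathione synthesis, NADPH production, thioredoxin and quinone reduction. Because this control acts largely on the protein, the mRNA of Nfe2l2 does not measure Nrf2 activity. In the brain the pathway is best known in astrocytes, which supply neighbouring neurons with glutathione precursors.

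The core of the element is shown in the promoters of 4 of the genes, because it is the sequence feature through which they are grouped. Windows from 250 bases before to 50 bases after a transcription start came from RefSeq on GRCm38.p6, and 7 of the 10 genes had at least 1 window (10 windows). TGACNNNGC and TGAGNNNGC were searched on both strands; the first bases of either can also form part of an AP-1 site. Capitals mark the matched core, and each sequence is written along its gene's strand, so a core on the opposite strand reads as its reverse complement.
Me1, chr9:86695912-86695940, minus strand: cggctcggccgatgccgccgTGACTCAGC
Nfe2l2, chr2:75704875-75704913, minus strand: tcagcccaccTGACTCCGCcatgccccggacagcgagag
Gclm, chr3:122245403-122245451, plus strand: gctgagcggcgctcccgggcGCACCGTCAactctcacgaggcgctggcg
Srxn1, chr2:152105346-152105507, plus strand: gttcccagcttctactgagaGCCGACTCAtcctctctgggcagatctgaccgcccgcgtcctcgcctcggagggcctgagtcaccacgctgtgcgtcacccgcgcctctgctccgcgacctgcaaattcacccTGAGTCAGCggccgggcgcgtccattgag

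The Me1 match began 6 bases before the start and ran across it, whereas the Nfe2l2 match lay 240 bases upstream and the Gclm match 134 bases upstream on the opposite strand. Srxn1 had a match 158 bases upstream on the opposite strand and another 45 bases upstream, both shown, and a further one 28 bases after the start. Txnrd1 and Slc7a11 also had a match, 92 and 97 bases upstream, so 6 of the 7 genes with a window had at least 1. By window, 6 of 10 matched: the windows without a match were that of Nqo1, 1 of the 2 of Me1 and 2 of the 3 of Txnrd1. The same search matched 27.8% of all 32851 RefSeq mouse windows of 300 bases. A match is a run of letters and not a binding site, and a window without one says only that these letters are not in it.

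Facts of the arrays that bear on every value below are few. Median raw intensity ran from 150.88 to 168.44, and 17623 to 18699 of 45281 probes per array were above background (detection p under 0.05). All 4 probes of Xist, the RNA that silences an X chromosome, were above background on Wip1-Tg primary replicate 2 and on the 3 secondary arrays, and none of them on the wt primary array or on Wip1-Tg primary replicate 1. On those 2 arrays alone, 1 of 2 probes of the Y-linked gene Kdm5d was above background. The labels call the samples matched for sex, so these arrays go against their labels. Passage results are also given from the 4 arrays with Xist signal, only 1 of which is primary. In that fit the passage difference is the Wip1-Tg secondary array minus Wip1-Tg primary replicate 2. It sets 1 array against 1 array, so only its size is given. Of 4 Ppm1d probes 1 was above background, and it read 9.29 on the wt primary array, 9.53 and 9.71 on the Wip1-Tg primary arrays, 10.13 and 9.98 on the wt secondary arrays and 10.24 on the Wip1-Tg secondary array. Between genotypes it differed by 0.26 (SE 0.125, limma adjusted p = 0.5395), and whether that probe can see the transgene's transcript is not given in the labels.

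The 7 oligodendrocyte markers measured were above background on every array, as were 6 of 8 astrocyte markers, with Gjb6 on 5 arrays and S100b on the 3 secondary arrays alone. Of 7 stem and progenitor markers measured, Nes, Sox2, Egfr, Hes5 and Fabp7 were above background on every array, Prom1 on 1 and Pax6 on none. Of 9 measured microglial markers 7 were never above background, among them Cx3cr1, Itgam, Tyrobp and Ptprc, while Csf1r was on 4 arrays and Aif1 on 2. Never above background were also 5 of 6 endothelial markers, Pecam1, Cdh5, Cldn5, Tek and Vwf. The other endothelial marker, Kdr, was above background on 2 secondary arrays and on no primary array. Of 8 mural and fibroblast markers 5 were never above background, whereas Acta2 was above it on every array, Rgs5 on 2 and Dcn on 1. Levels also differed between the passages. Hes5 rose by 1.62 (limma adjusted p = 0.004775), while Nes, Sox2, Egfr and Fabp7 did not pass the threshold. Pdgfra (-0.95, limma adjusted p = 0.0104) and Sox10 (-1.03, limma adjusted p = 0.04522) fell, and the other oligodendrocyte markers did not pass. The oligodendrocyte sum was 29721 to 31095 on primary and 32221 to 37659 on secondary arrays. It was led by Olig1, its brightest probe, which differed by 0.24 (limma adjusted p = 0.2021). Neuroblast and neuron markers summed to 4239 to 4493 against 3685 to 4083, a sum led by Map2 (-0.15, limma adjusted p = 0.3432). In that list Dcx rose by 1.43 (limma adjusted p = 0.001958). The summed level of 11 inflammation genes, all with a probe and 10 above background on some array, was 26058 to 45599 on primary arrays and 2801 to 6093 on secondary arrays, with Tnf never above background. The summed level of the 6 proliferation genes measured was 4396 to 7079 against 1880 to 4205, and 3 of them, Top2a, Cdk1 and Rrm2, fell past the threshold. The summed level of 8 astrocyte genes was 57242 to 66898 against 77319 to 90957, a sum led by its brightest probes. Of these, Slc1a2, Gja1, Gjb6 and S100b rose past the threshold, while Gfap fell by 1.38 (limma adjusted p = 0.005743). Levels differed with genotype too, though no feature passed the threshold for it. Mbp read 10.01 to 10.34 on wt and 7.26 to 8.99 on Wip1-Tg arrays, and Mag 7.74 to 8.54 against 5.65 to 7.035. The other oligodendrocyte markers overlapped. The proliferation sum was 4396 on the wt primary array against 5872 and 7079 on Wip1-Tg, and 2813 and 1880 against 4205 in secondary spheres. The part of these states in any passage or genotype difference below was not tested. In bulk RNA, fewer cells of a type and less RNA per cell cannot be told apart.

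Levels are log2 of normalised intensity throughout, and differences are log2 differences. They come from a limma fit over 12755 features with genotype and passage as terms; with 1 or 2 arrays per group, the error given is the standard error (SE) of that fit. The level of a gene cannot be set against that of another gene, because probes differ in brightness.

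Nfe2l2 itself was lower in secondary spheres, and lowest in those of Wip1-Tg mice. The gene lies at chr2:75675513-75704663 on GRCm38.p6. Its level was 8.83 on the wt primary array, 8.55 and 8.79 on the Wip1-Tg primary arrays, 8.16 and 8.42 on the wt secondary arrays and 7.38 on the Wip1-Tg secondary array. All 3 secondary arrays lay below all 3 primary arrays, and the Wip1-Tg secondary array stood apart from both wt secondary arrays by more than they differed from each other. The passage difference was -0.92 (SE 0.201, 95% interval -1.40 to -0.44), a 1.89-fold fall. It was past the threshold of the whole-table fit (limma adjusted p = 0.01882), ranking 2070 of 12755 by p. Without the Wip1-Tg secondary array the difference was -0.54 and no longer past the threshold. That fit compares passage within wt alone, as the 2 wt secondary arrays minus the 1 wt primary array. Without the wt primary array it was -1.29, the 1 Wip1-Tg secondary array minus the 2 Wip1-Tg primary arrays. On the 4 arrays with Xist signal it was -1.41, the Wip1-Tg secondary array minus Wip1-Tg primary replicate 2, and so no separate check. With Xist signal as an added term the passage difference was -1.23 and not past the threshold. In that fit Wip1-Tg primary replicate 2 is the only primary array with Xist signal and sets the Xist term alone, so only the size is given. A second Nfe2l2 probe was above background only on the wt primary array and was not tested.

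Me1, the cytosolic malic enzyme that makes NADPH while turning malate into pyruvate, had the largest passage difference of the 8 tested genes. It lies at chr9:86581363-86695914. Raw intensity was 1427 on the wt primary array, 681 and 959 on the Wip1-Tg primary arrays, 159 and 168 on the wt secondary arrays and 153 on the Wip1-Tg secondary array. The secondary values were not above background, with detection p-values of 0.264, 0.121 and 0.362, so the transcript was detected on every primary array and on no secondary array. In normalised log2 levels the same arrays read 9.99, 9.15, 9.73, 4.92, 5.12 and 4.84. The level was at least 19.7-fold lower in secondary spheres, taking the lowest signal that counts as above background as the limit on each secondary array. The fitted passage difference was -4.78 (SE 0.195, limma adjusted p = 0.0001481), ranking 9 of 12755 by p. Me1 passed the filter on dim probes through its primary arrays alone, and the fit used secondary values not above background. That p and rank therefore describe these arrays and are no support for the fall. Without the wt primary array, the brightest, the bound was at least 17.4-fold. These sizes belong to the background correction used: the difference was -2.63 on the authors' values, which are not background-subtracted, and -3.76 with an offset of 50, both past the threshold. On the 4 arrays with Xist signal the difference, the Wip1-Tg secondary array minus Wip1-Tg primary replicate 2, was -4.88.

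**Figure D1:**
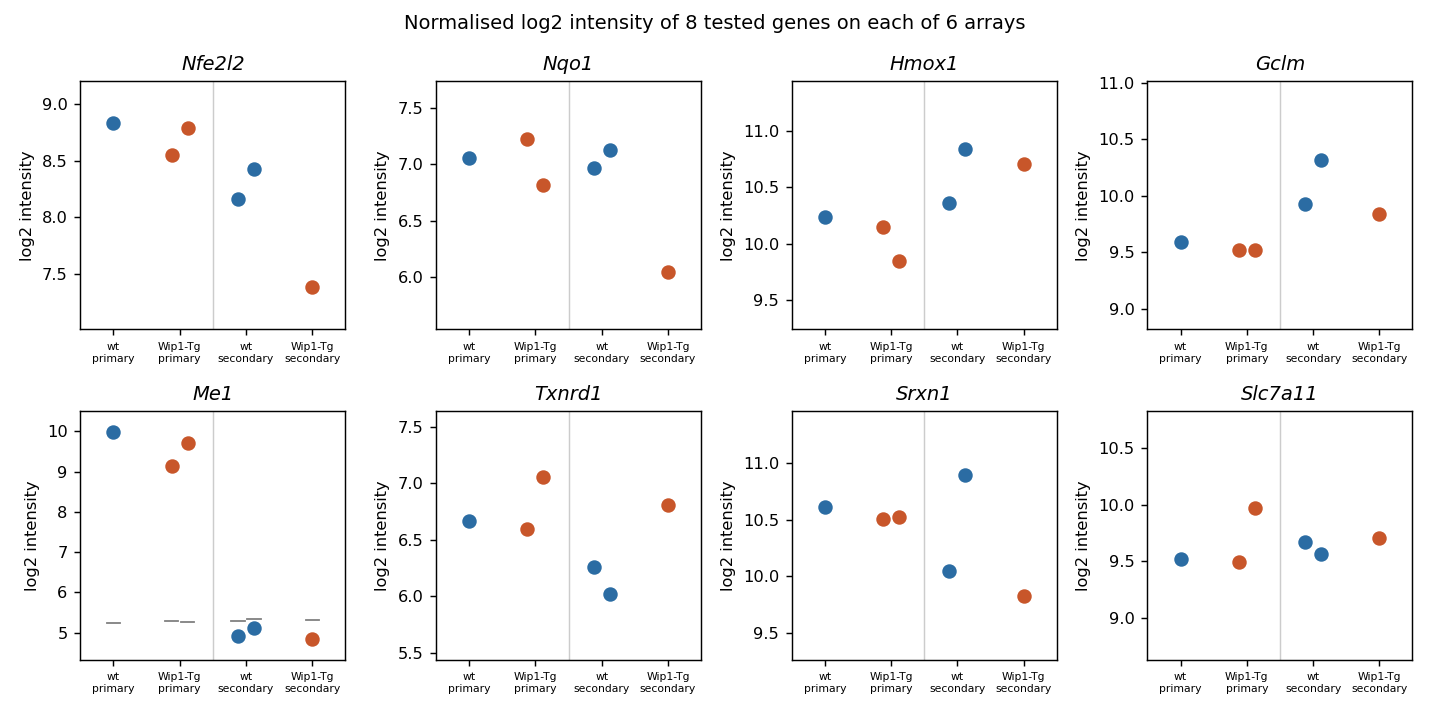
Normalised log2 intensity (y axes, which differ in range between panels) of the 8 tested genes on each of the 6 arrays, by genotype and passage (x axes; blue wt, orange Wip1-Tg); each point is 1 array, and the dashes in the Me1 panel mark the lowest signal above background on that array. Me1 lies below its dashes on the 3 secondary arrays, and Nfe2l2 and Nqo1 are lowest on the Wip1-Tg secondary array, at 7.38 and 6.05.

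Among the genes of glutathione synthesis, Gclm, the modifier subunit of glutamate-cysteine ligase, did not pass the threshold. It lies at chr3:122245487-122267215, and its level was 9.59 on the wt primary array, 9.52 on both Wip1-Tg primary arrays, 9.93 and 10.31 on the wt secondary arrays and 9.84 on the Wip1-Tg secondary array. Every secondary array was above every primary array. Its passage difference was 0.43 (SE 0.147, limma adjusted p = 0.07291). It passed in 4 alternatives, such as the authors' normalised values (0.37, limma adjusted p = 0.03406), and was 0.10 with median scaling (limma adjusted p = 0.6715). Gclc, the catalytic subunit, lies at chr9:77754535-77794489. Its raw intensity was 185 on the wt primary array, 162 and 158 on the Wip1-Tg primary arrays, 175 and 171 on the wt secondary arrays and 159 on the Wip1-Tg secondary array. It was above background on the wt primary array and on wt secondary replicate 1 alone, with detection p-values of 0.0235 and 0.0342, so no difference could be measured.

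Slc7a11 encodes xCT, the cystine and glutamate exchanger that brings in the cysteine used for glutathione, and lies at chr3:50364936-50499087. Its level was 9.52 on the wt primary array, 9.49 and 9.97 on the Wip1-Tg primary arrays, 9.67 and 9.56 on the wt secondary arrays and 9.70 on the Wip1-Tg secondary array. The groups overlapped. With passage it differed by 0.04 (SE 0.161, 95% interval -0.35 to 0.42, limma adjusted p = 0.8866), and its sign turned with median scaling (-0.29) and on the 4 arrays with Xist signal (-0.26). A second, dimmer Slc7a11 probe gave 0.52, with a limma adjusted p over probes of 0.1694, and the other 3 of its 5 probes did not pass the filter.

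Srxn1, sulfiredoxin, which repairs over-oxidised peroxiredoxins, had the widest gap between the wt secondary replicates among the 8 tested genes. It lies at chr2:152105524-152111376, and its level was 10.61 on the wt primary array, 10.51 and 10.52 on the Wip1-Tg primary arrays, 10.05 and 10.90 on the wt secondary arrays and 9.82 on the Wip1-Tg secondary array. The wt secondary arrays lay 0.85 apart, on either side of all primary arrays, while the Wip1-Tg primary arrays lay 0.01 apart. With passage Srxn1 differed by -0.42 (SE 0.254, limma adjusted p = 0.2629), and -0.58 and -0.53 on the other probes of the gene. Without wt secondary replicate 2 it was -0.64 (limma adjusted p = 0.02013), and with median scaling -0.72 (limma adjusted p = 0.02269). Without the Wip1-Tg secondary array it was -0.14, the difference within wt arrays alone. Without wt secondary replicate 1 it was -0.27 (limma adjusted p = 0.4598).

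Txnrd1, the cytosolic thioredoxin reductase, was measured by a dim probe. It lies at chr10:82833951-82897724, and its level was 6.66 on the wt primary array, 6.59 and 7.05 on the Wip1-Tg primary arrays, 6.26 and 6.02 on the wt secondary arrays and 6.81 on the Wip1-Tg secondary array. Both wt secondary arrays were below the other 4 arrays, which overlapped. Its passage difference was -0.27 (SE 0.192, limma adjusted p = 0.3358). Without the Wip1-Tg secondary array it was -0.52, the difference within wt arrays alone. Without the wt primary array it was -0.01, the difference within Wip1-Tg arrays alone. The gap between these values, tested as an interaction over all 6 arrays, was 0.51 (SE 0.346, limma adjusted p = 0.6571).

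Nqo1, the quinone reductase often used as a readout of Nrf2, was low on a single array. It lies at chr8:107388225-107403205, and its level was 7.06 on the wt primary array, 7.22 and 6.82 on the Wip1-Tg primary arrays, 6.96 and 7.13 on the wt secondary arrays and 6.05 on the Wip1-Tg secondary array. The first 5 of these values overlapped between passages and genotypes. The passage difference was -0.49 (SE 0.240, limma adjusted p = 0.1713). Without the Wip1-Tg secondary array it was -0.01, the difference within wt arrays alone. Without the wt primary array it was -0.97, the 1 Wip1-Tg secondary array minus the 2 Wip1-Tg primary arrays. With median scaling the fit over all 6 arrays gave -0.82 (limma adjusted p = 0.01421). The second Nqo1 probe never rose above background.

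Hmox1, haem oxygenase, which breaks down haem to biliverdin, iron and carbon monoxide, had its higher values in secondary spheres. It lies at chr8:75093618-75100593, and its level was 10.24 on the wt primary array, 10.15 and 9.84 on the Wip1-Tg primary arrays, 10.37 and 10.84 on the wt secondary arrays and 10.71 on the Wip1-Tg secondary array. All secondary arrays were above all primary arrays. Its passage difference was 0.54 (SE 0.185, limma adjusted p = 0.07223). It passed the threshold in 5 alternatives, among them the authors' normalised values (0.49, limma adjusted p = 0.03495) and leaving out wt secondary replicate 1 (0.67, limma adjusted p = 0.04086). It was 0.23 with median scaling (limma adjusted p = 0.4029), and 0.36 without the Wip1-Tg secondary array, the difference within wt arrays alone.

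The 8 tested genes thus held no common direction with passage. In the whole-table fit 2 of them, Me1 and Nfe2l2, were past the threshold, both lower in secondary spheres, where 28.1% of all features were past it, 14.3% higher and 13.8% lower. On 2 genes all secondary arrays were below all primary arrays, as for 21.8% of all features, and on 2, Hmox1 and Gclm, all were above, as for 25% of all features. The median passage difference of the 8 genes was -0.34, beside 0.04 over all features, and 3 of the 8 were positive. Nothing is read from these shares, since the genes were proposed with this contrast known. With median scaling in place of quantiles the median of all features moved to -0.24 and the split of calls from 1826 higher and 1757 lower to 626 higher and 3235 lower; 4 of the 8 genes were then past the threshold, all lower.

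**Figure D2:**
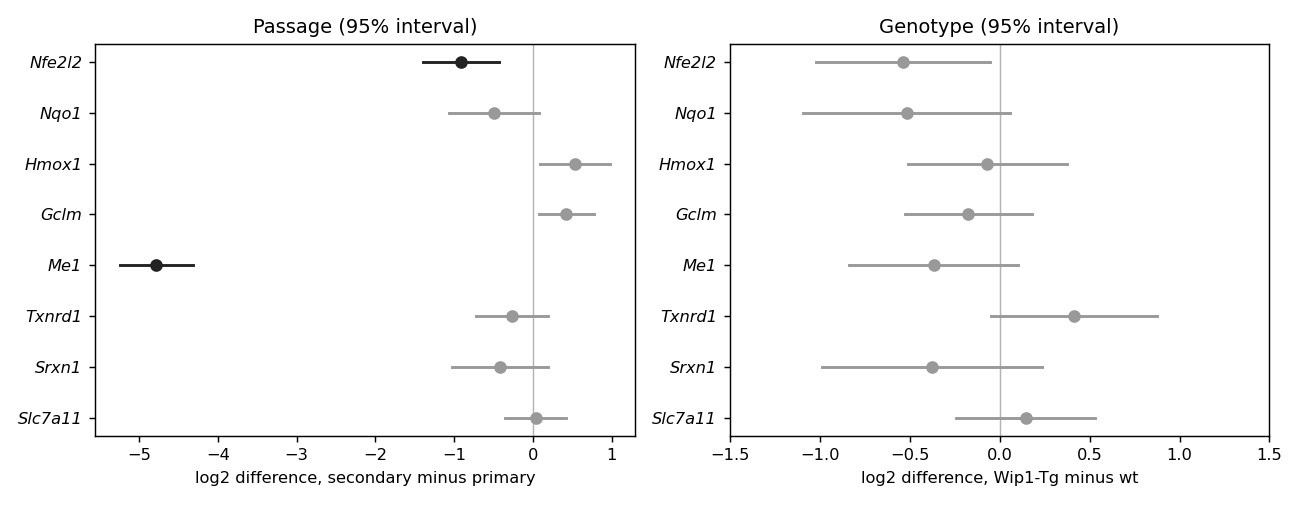
Log2 difference of each tested gene between secondary and primary spheres (left x axis) and between Wip1-Tg and wt spheres (right x axis), as points with 95% intervals from the fit over all 6 arrays; black marks an adjusted p under 0.05 and grey all others. Me1 at -4.78 and Nfe2l2 at -0.92 are the black points on the left, and no point is black on the right.

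Genotype differences were small beside the passage difference of Me1. For Nqo1, Txnrd1 and Slc7a11 they were larger in size than their own passage differences, and for the other tested genes smaller. None of the 8 genes passed the threshold. Over all features 0% (0 of 12755) were past it in limma, although 1286 had an unadjusted p under 0.05 (10.1%). The same fit with a trended and robust prior called 1 feature, and an ordinary linear model called 0. Nfe2l2 had the smallest genotype p among them, at -0.54 (SE 0.201, 95% interval -1.02 to -0.05, unadjusted p = 0.03427, limma adjusted p = 0.4845). Nqo1 was -0.52 (SE 0.240, limma adjusted p = 0.5232), and Txnrd1 was 0.42 (SE 0.192, limma adjusted p = 0.5203). The others were -0.38 (SE 0.254) for Srxn1, -0.37 (SE 0.195) for Me1, -0.17 (SE 0.147) for Gclm, 0.14 (SE 0.161) for Slc7a11 and -0.07 (SE 0.185) for Hmox1. On its other probes Srxn1 was -0.54 (SE 0.259) and -0.57 (SE 0.239). The Me1 value pools primary arrays with 3 secondary arrays that were not above background. Without the Wip1-Tg secondary array the differences were -0.16 for Nfe2l2, -0.03 for Nqo1, 0.16 for Txnrd1, -0.10 for Srxn1 and -0.07 for Gclm, all nearer 0. Those of Me1 (-0.55), Hmox1 (-0.24) and Slc7a11 (0.20) were farther from 0. These values are the same as the differences within primary spheres, so the within-primary values below repeat them. The sign turned for Slc7a11 with median scaling, for Me1 with passage left out (1.23) and for Hmox1 without the wt primary array (0.11) and in other settings. The median over the 8 genes was -0.27, beside 0.01 over all features, and 2 of the 8 were positive. A miss of the threshold does not show that the genotypes are alike.

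For Nfe2l2 and Nqo1 the genotype difference was larger within secondary than within primary spheres, but the test of that gap did not pass. Within primary spheres Nfe2l2 differed by -0.16 (SE 0.199, limma adjusted p = 0.8572) and within secondary spheres by -0.91 (SE 0.199, unadjusted p = 0.005345, limma adjusted p = 0.3179). Nqo1 differed by -0.03 (SE 0.220, limma adjusted p = 0.9719) and by -0.996 (SE 0.220, unadjusted p = 0.005698, limma adjusted p = 0.3179). Both secondary values rest on the 1 Wip1-Tg secondary array, assumed to vary like the other groups. The difference between the passages, tested as an interaction, was -0.75 for Nfe2l2 (SE 0.281, unadjusted p = 0.04216, limma adjusted p = 0.5199) and -0.96 for Nqo1 (SE 0.312, unadjusted p = 0.02593, limma adjusted p = 0.5013). Neither passed the threshold, and 0% (0 of 12755) of all features did, while 1196 had an unadjusted p under 0.05 (9.38%); other settings called 0 to 9 features. Of the 8 genes 2 had an unadjusted interaction p under 0.05.

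Txnrd1 was the other gene with an unadjusted p under 0.05 within secondary spheres, and there it was higher in Wip1-Tg, by 0.67 (SE 0.245, unadjusted p = 0.03891, limma adjusted p = 0.3532). For Txnrd1 the Wip1-Tg secondary array, at 6.81, lay within the range of the primary arrays, and the wt secondary arrays were the low ones. For Nfe2l2 and Nqo1 it was the Wip1-Tg secondary array that was low. Over all features 1762 (13.8%) had such a p within secondary spheres and 973 (7.63%) within primary spheres, where none of the 8 genes did. Srxn1 within secondary spheres was -0.65 (SE 0.355, limma adjusted p = 0.4660), of the size of the gap between its wt replicates. For Me1 the value within primary spheres, where it was detected, was -0.55 (SE 0.274, limma adjusted p = 0.7061), and its replicates there lay 0.58 apart.

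**Figure D3:**
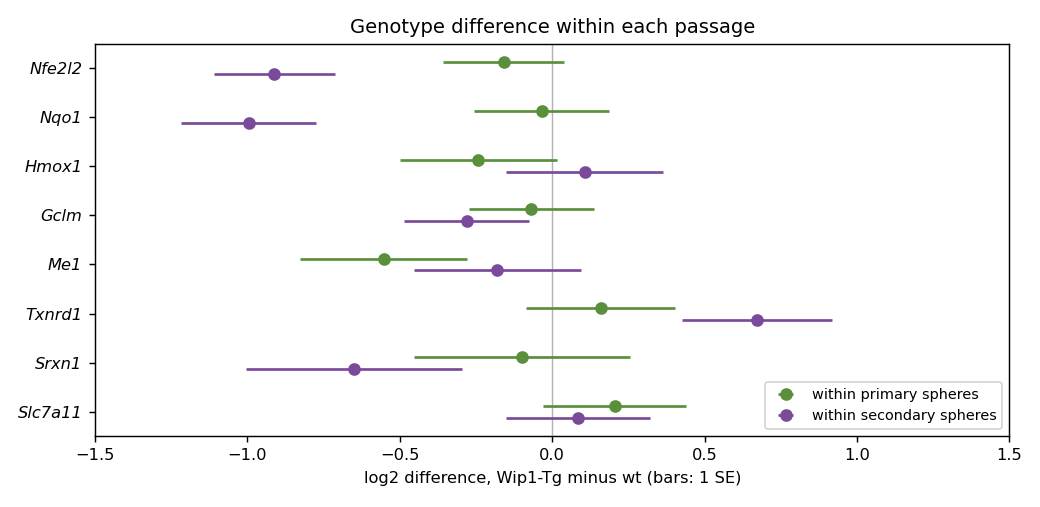
Log2 difference between Wip1-Tg and wt spheres (x axis) for each tested gene, within primary spheres (green) and within secondary spheres (purple); bars are 1 SE from the fit with an interaction. The purple points of Nfe2l2 at -0.91 and Nqo1 at -0.996 lie left of their green points, and that of Txnrd1 at 0.67 lies right of its own.

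The replicate pairs show what spread these differences stand against. Over all features the Wip1-Tg primary arrays differed by a median of 0.158 and the wt secondary arrays by 0.164, and 90% of features differed by less than 0.484 and 0.508. The 8 genes were at medians of 0.354 and 0.252, above the median of all features in both pairs. On replicate 2 of the pair, 5 of the 8 genes were higher for Wip1-Tg primary and 6 of the 8 for wt secondary spheres. The Wip1-Tg primary pair is also the pair that differs in Xist signal.

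Genes whose levels ran most alike were sought among 4055 features with an SD of at least 0.3 over the 6 arrays. For Nfe2l2 the highest Pearson correlations were with 9630025H16Rik (r = 0.996), Bcl2l1, an inhibitor of apoptosis (r = 0.994), Rgs4, a regulator of G protein signalling (r = 0.988), Tafa2 (r = 0.987) and the transcription factor Batf3 (r = 0.987). Each of these 5 was lowest on the Wip1-Tg secondary array, as Nfe2l2 was. For Me1 they were Ptx3, a secreted pattern recognition protein of inflammation (r = 0.999), the transcription factors Sox7 (r = 0.999) and Cebpd (r = 0.998), the actin-binding Tagln2 (r = 0.998) and the potassium chloride cotransporter Slc12a7 (r = 0.998). With 6 arrays in 4 groups, such values largely repeat the split by passage and describe likeness only.

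The wider pathway was followed in 8 gene lists with 110 genes, of which 105 had a named probe and 79 were tested. With passage 16 rose and 8 fell, 30.4% of those tested, near the 28.1% of all features, and with genotype 0 passed the threshold. Their median passage difference was 0.03 and their median genotype difference -0.07, and 9 (11.4%) had an unadjusted genotype p under 0.05, beside 10.1% of all features. The rises depended on scaling: with median scaling 6 of these 16 rises stayed past the threshold (Oplah, Slc3a2, Gsta4, Gstm1, Cbs and Phgdh), while all 8 falls did. On the 4 arrays with Xist signal the passage difference is between single Wip1-Tg arrays, so calls are not counted there. No rise turned to a fall, or the reverse, in either setting.

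Among regulators of Nrf2, 11 of 16 were tested, of which 0 rose and 1 fell (9.09%), with a median of -0.17. The gene that fell was Btrc, encoding β-TrCP, a ubiquitin ligase subunit that also targets Nrf2, at -0.73 (SE 0.124, limma adjusted p = 0.008336). Keap1, which holds Nrf2 back, read 9.97 on the wt primary array, 10.06 and 10.23 on the Wip1-Tg primary arrays, 10.20 and 10.18 on the wt secondary arrays and 10.02 on the Wip1-Tg secondary array. Its groups overlapped, with a passage difference of 0.05 (SE 0.134, limma adjusted p = 0.8150). Nfe2l1, a related transcription factor, had the smallest genotype p on this list, at -0.32 (SE 0.135, limma adjusted p = 0.4968).

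Of 12 tested genes of glutathione synthesis and use, 3 rose and 1 fell, with a median of -0.01. Oplah, 5-oxoprolinase, which returns glutamate to glutathione synthesis, rose by 1.15 (SE 0.131, limma adjusted p = 0.001979). Slc3a2, the heavy chain that carries xCT to the membrane, rose by 0.92 (SE 0.188, limma adjusted p = 0.01533), where Slc7a11 itself did not pass. Glrx, glutaredoxin, rose by 0.57 on its brightest probe (limma adjusted p = 0.01823), but a dimmer probe gave -3.40, so its direction is uncertain. Gpx3, a secreted glutathione peroxidase, fell by 1.42 (SE 0.266, limma adjusted p = 0.01114). Gpx7, a peroxidase of the endoplasmic reticulum, had the smallest genotype p of this list, at 0.34 (SE 0.119, unadjusted p = 0.0254, limma adjusted p = 0.4805).

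In the thioredoxin and peroxiredoxin list all 12 genes with a probe were tested, of which 2 rose and 2 fell. Txnip, which binds and inhibits thioredoxin, fell by 2.71 (SE 0.504, limma adjusted p = 0.01095). Its level was 10.21 on the wt primary array, 9.89 and 9.56 on the Wip1-Tg primary arrays, 7.99 and 9.10 on the wt secondary arrays and 5.97 on the Wip1-Tg secondary array. The lowest array was again the Wip1-Tg secondary one. Txn1, thioredoxin, rose by 0.66 (SE 0.133, limma adjusted p = 0.01425) and had the smallest genotype p of this list, at 0.48 (unadjusted p = 0.009078, limma adjusted p = 0.4410). Txnrd2, the mitochondrial thioredoxin reductase, rose by 0.47 on its brightest probe (limma adjusted p = 0.02962) and was at 0.00 on another. Prdx4, a peroxiredoxin of the endoplasmic reticulum, fell by 0.44 (limma adjusted p = 0.02738).

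NADPH supply gave 3 rises and 0 falls among 8 tested genes, beside the fall of Me1. Mthfd1, a folate enzyme, rose by 0.75 (SE 0.128, limma adjusted p = 0.008336), Idh1, cytosolic isocitrate dehydrogenase, by 0.53 (SE 0.118, limma adjusted p = 0.01975) and Nnt, the mitochondrial transhydrogenase, by 0.51 (SE 0.130, limma adjusted p = 0.02921), with 1 of 3 primary arrays above background. None of these rises stayed past the threshold with median scaling, and that of Nnt did not on the authors' values (0.15, limma adjusted p = 0.1616) or with an offset of 50 (0.29, limma adjusted p = 0.07029). Mthfd1 also had the smallest genotype p of this list, at 0.29 (unadjusted p = 0.05844). Me2, the mitochondrial relative of Me1, differed by -0.12 (SE 0.187, limma adjusted p = 0.6525).

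Of 8 tested genes of iron and haem handling, Tfrc, the transferrin receptor, was the only rise, by 0.61 (SE 0.148, limma adjusted p = 0.02639), and 0 fell. Slc48a1, a haem transporter, had the smallest genotype p of this list, at -0.37 (SE 0.212, unadjusted p = 0.1277). Among 12 tested quinone, aldehyde and xenobiotic enzymes 3 rose and 1 fell. The glutathione transferases Gstm1 and Gsta4 rose by 0.96 (SE 0.134, limma adjusted p = 0.004124) and by 0.89 (SE 0.134, limma adjusted p = 0.005465), and the carbonyl reductase Cbr3 by 0.54 (limma adjusted p = 0.01532). Gstm1 also had the smallest unadjusted genotype p among the named genes of the pathway, at -0.56 (SE 0.134, unadjusted p = 0.004892, limma adjusted p = 0.4345). Esd, esterase D, fell by 1.13 (limma adjusted p = 0.007555), with its probes ranging from -1.13 to -0.22.

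Of 5 tested enzymes of superoxide and hydrogen peroxide, Cat and Cyba moved in opposite directions. Cat, catalase, rose by 0.88 on its brightest probe (SE 0.198, limma adjusted p = 0.02061) and was at -0.06 on another. Cyba, the membrane subunit shared by NADPH oxidases, read 9.12 on the wt primary array, 8.36 and 7.42 on the Wip1-Tg primary arrays, 5.71 and 5.60 on the wt secondary arrays and 5.49 on the Wip1-Tg secondary array. Its groups did not overlap, and it fell by 2.93 (SE 0.326, limma adjusted p = 0.001829). That size depends on the background correction, at -1.49 on the authors' values and -2.30 with an offset of 50. Txnip was then the larger fall, at -1.84 and -2.38. Cyba had the smallest genotype p of these enzymes, at -0.70 (unadjusted p = 0.07277). In the ATF4 stress response, a neighbouring pathway that shares Slc7a11 as a target, 3 of 11 tested genes rose and 2 fell. Phgdh, of serine synthesis, rose by 1.04 (SE 0.144, limma adjusted p = 0.004051) and Cbs, of cysteine synthesis, by 0.98 (SE 0.190, limma adjusted p = 0.01285). For genotype, Cbs had the smallest p of this list, at -0.50 (unadjusted p = 0.03605, limma adjusted p = 0.4845). Atf4 itself rose by 0.66 on its brightest probe (limma adjusted p = 0.03361) but a dimmer probe gave -1.93. Atf3, a stress-induced factor, fell by 1.66 (limma adjusted p = 0.008329), with 1 of 3 secondary arrays above background. It was -0.59 on the authors' values and -1.09 with an offset of 50. Vldlr, a lipoprotein receptor, fell by 1.18 (limma adjusted p = 0.01258), with its probes ranging from -1.28 to -0.42.

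**Figure D4:**
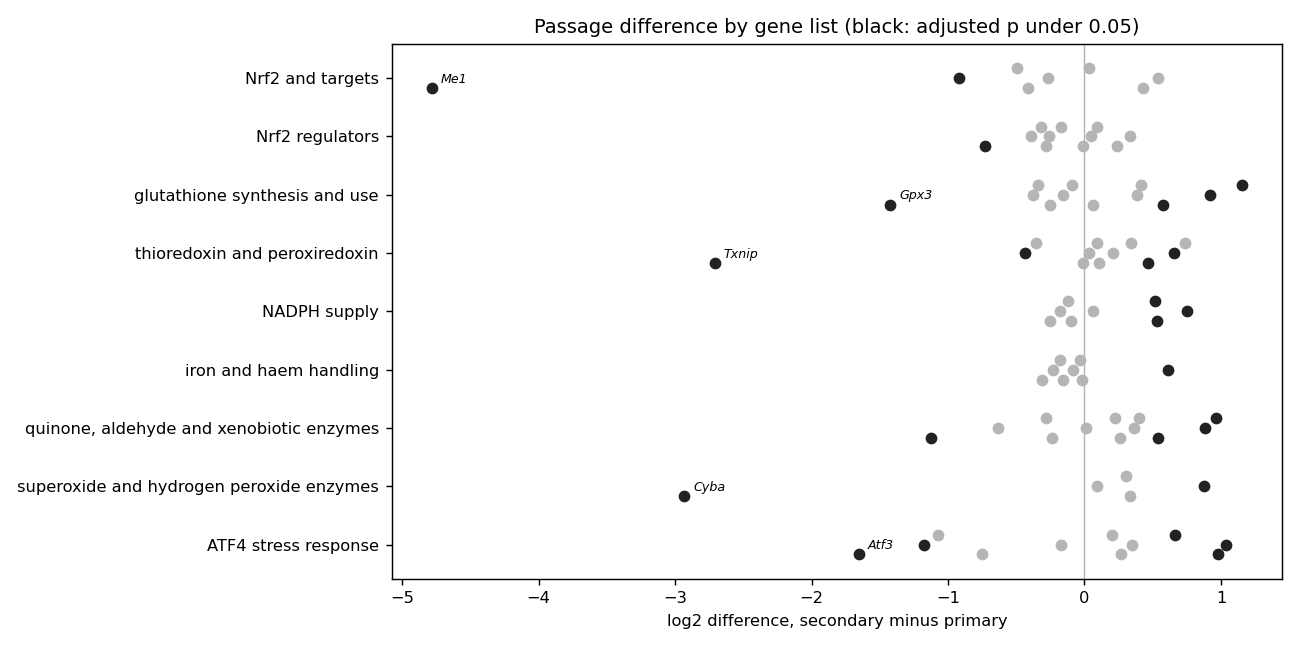
Log2 difference between secondary and primary spheres (x axis) of each tested gene, by gene list (y axis); black points have an adjusted p under 0.05 and grey points do not, and vertical offsets within a list only separate points. Me1 at -4.78 lies farthest from 0, followed by Cyba at -2.93 and Txnip at -2.71, and most genes of every list lie within 1 of 0.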

How the data were processed

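The deposited non-normalized table gives, per the file headers, a linear intensity and a detection p-value for 45281 probes on each array. Detection p-values were multiples of 1 over 936, and the intensity is not background-subtracted. The deposited value table holds intensities quantile normalized by the authors, as its values show (all column medians 161.57), and was used as an alternative. Scanner software is not given in the sources used here. Gene names came from the platform annotation (34885 probes with 1 symbol, 18 with several, 10378 with none) and coordinates from RefSeq on GRCm38.p6.

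Intensities were corrected and quantile normalized with neqc (offset 16) of limma 3.58.1 in R 4.3.3. A probe was kept where its detection p was below 0.05 on 3 or more of the 6 arrays (18274 probes), and the brightest per gene was used, giving 12755 features (10167 named genes). Models with genotype and passage, or with their interaction, were fitted with lmFit and eBayes over all features, with Benjamini-Hochberg adjustment and a threshold of 0.05. The arrays' number limits the precision. Where a group was not above background, the bound took, per array, the higher of the probe's own value and the dimmest detected signal. The procedure was tested on simulated data. The genes named outside the 10 were, per list, up to 3 rises and up to 3 falls with passage and the gene with the smallest genotype p; Keap1 and Me2 were added after their values were seen. The genes, lists and this rule were chosen with earlier results of these data known. Alternatives were the background correction, scaling, probe filter, probe choice, variance model, covariates, left-out arrays and Xist signal.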

Additional observations from a re-analysis of the deposited data

How the results depend on the processing

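Over 419 alternatives for single genes, 387 kept direction and side of the threshold, and the cause of the others was not tested. That count does not measure stability. Settings of the filter and variance model left estimates such as the genotype difference of Nfe2l2 (-0.54) in place. A difference called in no setting counted as kept at any size if its sign held. That of Nqo1 with genotype ran from -0.996 to -0.035 and was kept in 19 of 19. Calls with genotype were 0 except 1 with a trended and robust prior. Calls with passage (3583) were 918 without moderation, 1101 on the 4 arrays with Xist signal, 1112 with Xist as an added term, and 1363 to 3034 with each array left out, fewest without the Wip1-Tg secondary array (1363), the wt primary array (1855) and wt secondary replicate 1 (2356). Interaction calls were 6 with the authors' values, 1 with an offset of 50, 9 with median scaling, 1 without a filter, 1 with the filter at 1 array, 9 with a trended and robust prior, and 0 with each array left out that allowed a fit; without the wt primary or the Wip1-Tg secondary array no interaction exists. Of the 10 genes, 2 were called lower with passage, and 4 with median scaling. The count was 1 each with the filter at all 6 arrays (which removes Me1), without moderation and with genotype left out. With a Wip1-Tg primary or wt secondary array left out it was 2 to 3 (3 without wt secondary replicate 2). None was called higher, against 2 with the authors' values, an offset of 50, a trended and robust prior, or genotype left out. With 1 of those arrays left out it was 0 to 1 (1 without wt secondary replicate 1).

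Nfe2l2 was no longer called for passage without moderation (limma adjusted p = 0.1212) or with genotype left out (-0.74, limma adjusted p = 0.06999). Nor was it called without the Wip1-Tg secondary array (-0.54, within wt arrays alone) or with Xist as an added term (-1.23, with 1 primary array bearing Xist signal). Signs turned for the genotype difference of Hmox1, which ran from -0.24 to 0.11 with each array left out. It was 0.11 without the wt primary array and, by the same estimate, on the 4 arrays with Xist signal. It was 0.022 without Wip1-Tg primary replicate 2 and, by the same estimate, with Xist as an added term. Without wt secondary replicate 2 it was 0.0091. Signs turned too for the genotype differences of Me1 (1.23 with passage left out) and Slc7a11 (-0.073 with median scaling). They also turned for the passage difference of Slc7a11 (-0.29 with median scaling, -0.013 with genotype left out, -0.024 without the wt primary array, -0.058 without Wip1-Tg primary replicate 1, -0.058 to 0.15 with each array left out, -0.26 on the 4 arrays with Xist signal, -0.30 with Xist as an added term). Its interaction turned from -0.12 to 0.10 with median scaling and to 0.12 without Wip1-Tg primary replicate 2 (-0.36 to 0.12 with each array left out). Single other probes were an alternative chosen after seeing the data. No paired analysis was possible because the numbered replicates, Wip1-Tg primary and wt secondary, differ in both genotype and passage, so groups compared share fewer than 2 numbers. Dim probes limit Gclc and the Me1 bound.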
